A study of Homo sapiens with 24 samples.

Results

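IFIH1, which encodes the cytosolic RNA sensor MDA5, and 7 genes that act beside it or below it were followed through 6 days of EZH2 inhibition in a lymphoma cell line. The 7 are RIGI (listed on the array under its older symbol DDX58), DHX58, MAVS, ADAR, TBK1, IKBKE and IRF3. They were taken by name, with every probe set that the platform's annotation assigns to that gene alone, which gave 16 of the 54613 probe sets and 8 of the 19775 genes tested. The 8 genes were chosen with earlier results of these data known, so their counts and ranks beside all genes are descriptions. Where a gene had several, its brightest probe set across the 24 arrays stood for it.

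The cells were KARPAS-422 (Karpas422 in the labels), an established human lymphoma line of the diffuse large B-cell type (DLBCL), and the labels give its EZH2 genotype as Y641N, which DMSO and inhibitor cells share. EZH2 is the enzyme of a Polycomb complex that keeps genes silent through methylation of a lysine on histone H3. Cultures received DMSO, the solvent control, or an EZH2 inhibitor that the labels do not name, at 5 uM, and total RNA was taken at days 1, 2, 3 and 6. Each of the 8 groups of treatment and day held 3 arrays, described as biological replicates, and all results come from this single line.

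MDA5 and RIG-I, the product of RIGI, are helicases that bind double-stranded RNA in the cytoplasm, whether of viral origin or transcribed from the cell's own repeats. On binding they engage MAVS, an adaptor on the mitochondrial membrane, which recruits the kinases TBK1 and IKK-epsilon (IKBKE). These phosphorylate IRF3, a transcription factor that switches on interferon beta and a set of antiviral genes. LGP2, the product of DHX58, is a related helicase without the signalling domains, and ADAR edits adenosines in double-stranded RNA so that the cell's own transcripts engage the sensors less. Several of these genes, IFIH1 and RIGI among them, are themselves induced by interferon.

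Levels are on the log2 scale, so that a difference of 1 is a 2-fold change, and differences were taken between inhibitor and DMSO arrays of equal day (positive where the inhibitor was higher) and carry the standard error of the fit (SE, 3 arrays per group). A gene was called, and is said to have risen or fallen, where limma's p, adjusted by the method of Benjamini and Hochberg over all 19775 genes, was under 0.05. The smallest p that an exact test of 3 arrays against 3 can give is 0.1, so no such test is shown. In RNA from a whole culture, more expressing cells and more RNA per cell cannot be told apart.

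Facts that touch the whole set of arrays were these. Array medians lay between 4.96 and 5.03, the lowest correlation between 2 arrays was 0.967, and no 2 arrays held identical values. The mean level of 9 B cell markers was 10.72 to 11.08 on the DMSO arrays and 10.75 to 11.35 on the inhibitor arrays. The mean of 9 myeloid markers was 4.12 to 4.27 and 3.93 to 4.20, and that of 10 stromal, endothelial and epithelial markers 4.44 to 4.58 and 4.33 to 4.53. The mean of 10 T and NK cell markers was 5.46 to 5.60 and 5.39 to 5.54. Among the T cell markers CD3G averaged 10.95 and CD3D 7.12, while CD2 (3.71), CD8A (4.18) and NKG7 (3.78) were dim. Between the arms at day 6, where 18.5% of all genes were higher and 26.9% lower with the inhibitor, 5 of the 9 B cell markers were higher (CD79B by 1.10 and MME by 0.83 among them) and 0 lower, and 0 of the 9 myeloid markers were higher and 5 lower. Of the 10 T and NK cell markers PRF1 was higher by 0.52 and CD3D lower by 0.58, and of the 10 stromal, endothelial and epithelial markers 0 were higher and 2 lower. The part of these markers in the results on the 8 genes was not tested. The marker genes named here were chosen after their values were seen. Transcripts of EZH2 itself differed by 0.05, -0.09 and -0.29 at days 1, 2 and 3, which did not pass the test, and were lower by 0.64 ± 0.12 (SE) at day 6.

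The sequences upstream of the start sites are shown because interferon-induced members of the pathway are known to carry binding sites for interferon regulatory factors there. RefSeq promoters (GRCh38.p14) were matched for 6 of the 8 genes, with 8 entries in all, since ADAR has 3. The 250 bases before each start were searched on both strands for GAAANNGAAA, the core of an interferon-stimulated response element, for GAAANGAAA, the same repeat with a gap of 1 base, and for TTCNNNGAA, the core of a gamma-activated site. The sequences of 4 genes are printed, namely the sensors IFIH1 and RIGI, the adaptor MAVS and the kinase IKBKE, each from 5′ to 3′ in the direction of the gene, with matches in capitals.
IFIH1, chr2:162318685-162318934, minus strand: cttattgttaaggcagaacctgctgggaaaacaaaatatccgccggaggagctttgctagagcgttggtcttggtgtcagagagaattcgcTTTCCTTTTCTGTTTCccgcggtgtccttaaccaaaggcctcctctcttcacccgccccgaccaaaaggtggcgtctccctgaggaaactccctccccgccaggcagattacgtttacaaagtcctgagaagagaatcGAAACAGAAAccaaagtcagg
RIGI, chr9:32526197-32526446, minus strand: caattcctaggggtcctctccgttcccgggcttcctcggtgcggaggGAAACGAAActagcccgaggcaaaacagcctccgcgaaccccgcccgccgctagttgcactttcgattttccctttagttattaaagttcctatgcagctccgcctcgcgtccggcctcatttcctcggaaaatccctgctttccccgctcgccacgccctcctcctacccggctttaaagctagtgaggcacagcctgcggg
MAVS, chr20:3846584-3846833, plus strand: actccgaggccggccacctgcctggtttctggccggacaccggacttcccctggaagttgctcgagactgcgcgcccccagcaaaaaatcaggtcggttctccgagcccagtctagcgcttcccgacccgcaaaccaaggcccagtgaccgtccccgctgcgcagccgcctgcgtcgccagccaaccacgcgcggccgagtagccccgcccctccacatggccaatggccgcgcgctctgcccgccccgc
IKBKE, chr1:206470226-206470475, plus strand: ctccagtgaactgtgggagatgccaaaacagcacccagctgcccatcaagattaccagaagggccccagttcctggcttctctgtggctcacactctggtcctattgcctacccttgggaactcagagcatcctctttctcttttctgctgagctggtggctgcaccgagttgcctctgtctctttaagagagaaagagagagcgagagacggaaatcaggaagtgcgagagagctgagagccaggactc
The IFIH1 sequence held 3 matches to GAAANNGAAA, which begin 159, 153 and 21 bases before the start site. The pair at 159 and 153 lie on the opposite strand and overlap, so that they form the run TTTCCTTTTCTGTTTC, and the match at 21 reads GAAACAGAAA. The RIGI sequence held 1 match to GAAANGAAA, which reads GAAACGAAA and begins 203 bases before the start. None of the 3 motifs matched in MAVS, IKBKE, TBK1 or any of the 3 entries of ADAR. Of 35116 RefSeq promoters searched in the same 250 bases, 3.02% held GAAANNGAAA, 2.69% GAAANGAAA and 6.57% TTCNNNGAA. The count of CpG dinucleotides was 12 for IFIH1, 22 for RIGI, 28 for MAVS, 27 for TBK1 and 4 for IKBKE, against a median of 11 (quartiles 3 and 23) over all promoters. A match is a stretch of letters, and no binding was measured.

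IFIH1 was the member that changed most. In DMSO it lay below the array medians. Its values in replicates 1, 2 and 3 were 3.88, 3.60 and 3.68 at day 1. They were 4.08, 3.98 and 3.50 at day 2, 3.85, 4.40 and 3.96 at day 3, and 3.53, 3.60 and 4.04 at day 6. The 4 DMSO groups overlapped with each other, and their means spanned 0.35. With the inhibitor the values were 4.41, 4.93 and 4.91 at day 1, and 6.17, 7.03 and 6.01 at day 2. At day 3 they were 7.81, 9.30 and 8.51, and at day 6 10.08, 10.04 and 9.56. No inhibitor array overlapped with any DMSO array of its day, and the inhibitor groups of successive days did not overlap either. Day 3 had the widest spread of the inhibitor groups, with an SD of 0.75 (n = 3), and the other inhibitor groups had SDs of 0.29 to 0.55.

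**Figure D1:**
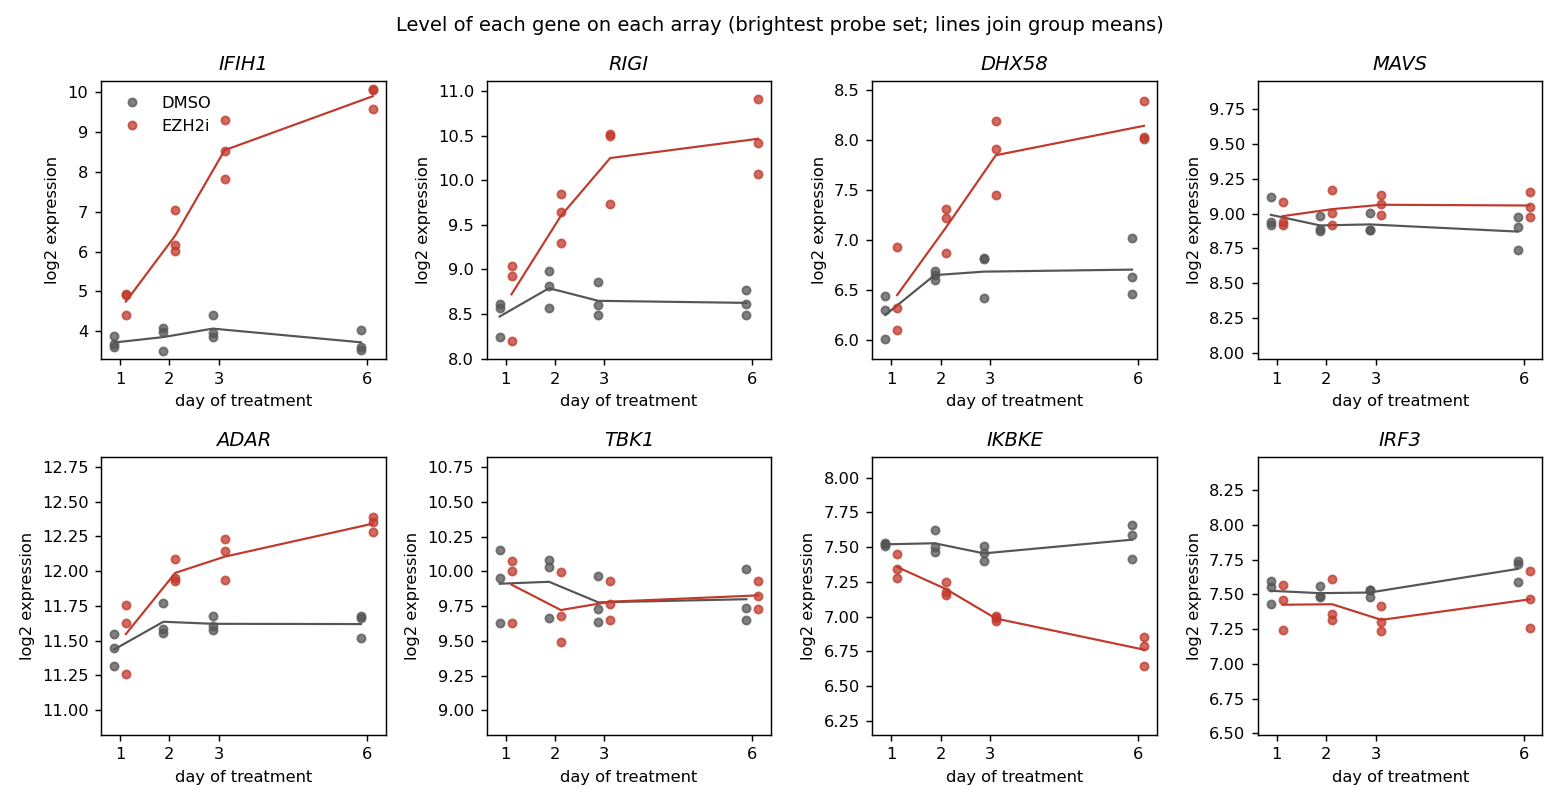
Log2 expression of each of the 8 genes on each of the 24 arrays by day of treatment, in DMSO (grey) and with the EZH2 inhibitor (red). Points are single arrays, lines join the means of 3 arrays, and each panel has its own vertical range. IFIH1 spans 3.50 to 10.08, while MAVS and TBK1 stay within 8.74 to 9.17 and 9.49 to 10.16.

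The difference of IFIH1 from DMSO was 1.03 ± 0.29 (SE) at day 1, a 2.04-fold change with a 95% interval of 0.42 to 1.63, and the adjusted p of 0.163 missed the threshold. At day 2 IFIH1 rose by 2.55 ± 0.29 (5.84-fold, adjusted p = 8.2e-06). At day 3 the rise was 4.47 (22.2-fold, adjusted p = 2.9e-09) and at day 6 it was 6.17 (72.0-fold, adjusted p = 4.5e-13). Among all 19775 genes, ranked from the highest difference down, IFIH1 stood at place 14 at day 1, place 1 at days 2 and 3, and place 3 at day 6. RMA tends to understate differences from so dim a level. Ordered by mean, the groups ran from DMSO day 1 (3.72) through DMSO days 6, 2 and 3 to the inhibitor at day 1 (4.75), day 2 (6.40), day 3 (8.54) and day 6 (9.89). Steps between neighbouring inhibitor groups were 1.65, 2.14 and 1.35, each with an SE of 0.29, and those among the DMSO groups (0.01, 0.13 and 0.21) were smaller than their SE.

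The probe sets of IFIH1 differed in how much they rose. The brightest, 219209_at, gave the values above. In DMSO the group means were 2.61 to 2.83 for 1555464_at and 2.80 to 2.97 for 216020_at. At day 6 the former rose by 2.75 ± 0.26 (adjusted p = 2.4e-08 over all probe sets) and the latter by 1.69 ± 0.11 (adjusted p = 5.6e-11). At day 3 they rose by 1.75 and 1.03, and at day 2 the differences were 0.52 (adjusted p = 0.41) and 0.44 (adjusted p = 0.026). Over the 24 arrays they correlated with the brightest at r = 0.95 and 0.97, where all points share the time course. With the mean of its probe sets standing for the gene, IFIH1 rose by 3.54 at day 6 in place of 6.17, and it was still called.

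RIGI, the sensor of RNA ends with a triphosphate, rose by less than IFIH1. In DMSO its 12 arrays lay between 8.24 and 8.98. With the inhibitor replicates 1, 2 and 3 had 8.19, 8.93 and 9.04 at day 1, and 9.30, 9.65 and 9.85 at day 2. They had 9.73, 10.52 and 10.49 at day 3, and 10.91, 10.42 and 10.07 at day 6. The groups overlapped at day 1 and were apart from day 2 on, but neighbouring inhibitor groups from day 2 to day 6 overlapped with each other. The difference was 0.25 ± 0.23 at day 1 (95% interval -0.23 to 0.73), and RIGI rose by 0.81 at day 2 (adjusted p = 0.047). The day 2 call is a narrow one, since it was lost under 8 of the 18 alternatives, among them leaving out inhibitor replicate 2 (adjusted p = 0.14) or 3 (0.20) and leaving out DMSO replicate 1 (0.064), 2 (0.11) or 3 (0.17). At day 3 the rise was 1.60 (adjusted p = 3.2e-05) and at day 6 it was 1.84 (3.58-fold, adjusted p = 8.4e-07). All 3 RIGI probe sets rose at days 3 and 6, by 1.84, 2.30 and 1.40 at day 6. At day 2, with limma's p adjusted over all probe sets, only 222793_at was called (0.94, adjusted p = 0.042). The brightest, 218943_s_at, then had an adjusted p of 0.075, and 242961_x_at differed by 0.36 (adjusted p = 0.35).

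DHX58, whose product LGP2 is known to modulate the other helicases of the family, rose at the later days. Its DMSO values were 6.01, 6.30 and 6.44 at day 1 and 6.63, 6.46 and 7.02 at day 6. The inhibitor arrays read 6.10, 6.32 and 6.93 at day 1, and 6.88, 7.31 and 7.22 at day 2. They read 7.45, 7.91 and 8.19 at day 3, and 8.39, 8.01 and 8.03 at day 6. The groups of a day overlapped at day 1 and lay apart at the other days. The difference was 0.20 ± 0.20 at day 1 and 0.48 at day 2, neither of them called (adjusted p = 0.21 at day 2). In a fit blocked by replicate number, which compares arrays of the same number, the adjusted p at day 2 was 0.078, and with that block within each day DHX58 was called (0.044). DHX58 rose by 1.17 at day 3 (adjusted p = 0.00025) and by 1.44 at day 6 (2.71-fold, adjusted p = 3.9e-06).

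ADAR, the editing enzyme that marks the cell's own double-stranded RNA, also rose. In DMSO its arrays read 11.32, 11.44 and 11.55 at day 1, and at the later days they lay between 11.52 and 11.77. With the inhibitor they read 11.26, 11.63 and 11.76 at day 1, and 11.93, 11.95 and 12.09 at day 2. At day 3 they read 11.94, 12.15 and 12.23, and at day 6 12.28, 12.39 and 12.35. From day 2 every inhibitor array lay above the DMSO arrays of its day. The difference was 0.11 ± 0.11 at day 1 and 0.35 at day 2, where the adjusted p of 0.0625 missed the threshold. The day 2 difference was called in 7 of the 18 alternatives, namely with replicate numbers blocked (adjusted p = 0.0040, or 0.0045 within each day), array weights (0.015), quantile normalization (0.036), a variance trend (0.039), the dimmest genes left out (0.041) and array medians subtracted (0.043). ADAR rose by 0.48 at day 3 (adjusted p = 0.0024, or 0.12 with the arrays numbered 2 left out) and by 0.72 at day 6 (1.65-fold, adjusted p = 6.9e-06).

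Below the sensors, the adaptor MAVS moved little by its brightest probe set. All 24 arrays lay between 8.74 and 9.17. At day 6 the DMSO arrays read 8.74, 8.90 and 8.97 and the inhibitor arrays 8.97, 9.05 and 9.15, so that the groups overlapped slightly. The difference of 0.19 ± 0.08 (95% interval 0.01 to 0.37) was not called, with an adjusted p of 0.074. With replicate numbers blocked it was called (adjusted p = 0.010, or 0.015 with the block within each day). It was also called without DMSO replicate 3 (0.045) and, narrowly, with the dimmest genes left out (0.0499989). The other 3 MAVS probe sets all rose at day 6, by 0.41 ± 0.08 for 226495_at (adjusted p = 0.00039), 0.58 ± 0.15 for 229741_at (0.0039) and 0.41 ± 0.13 for 231829_at (0.018). The mean of the 4 rose by 0.40 (adjusted p = 0.0024), so the call for MAVS at day 6 depended on which probe set stood for the gene. At days 1, 2 and 3 no MAVS probe set was called.

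**Figure D2:**
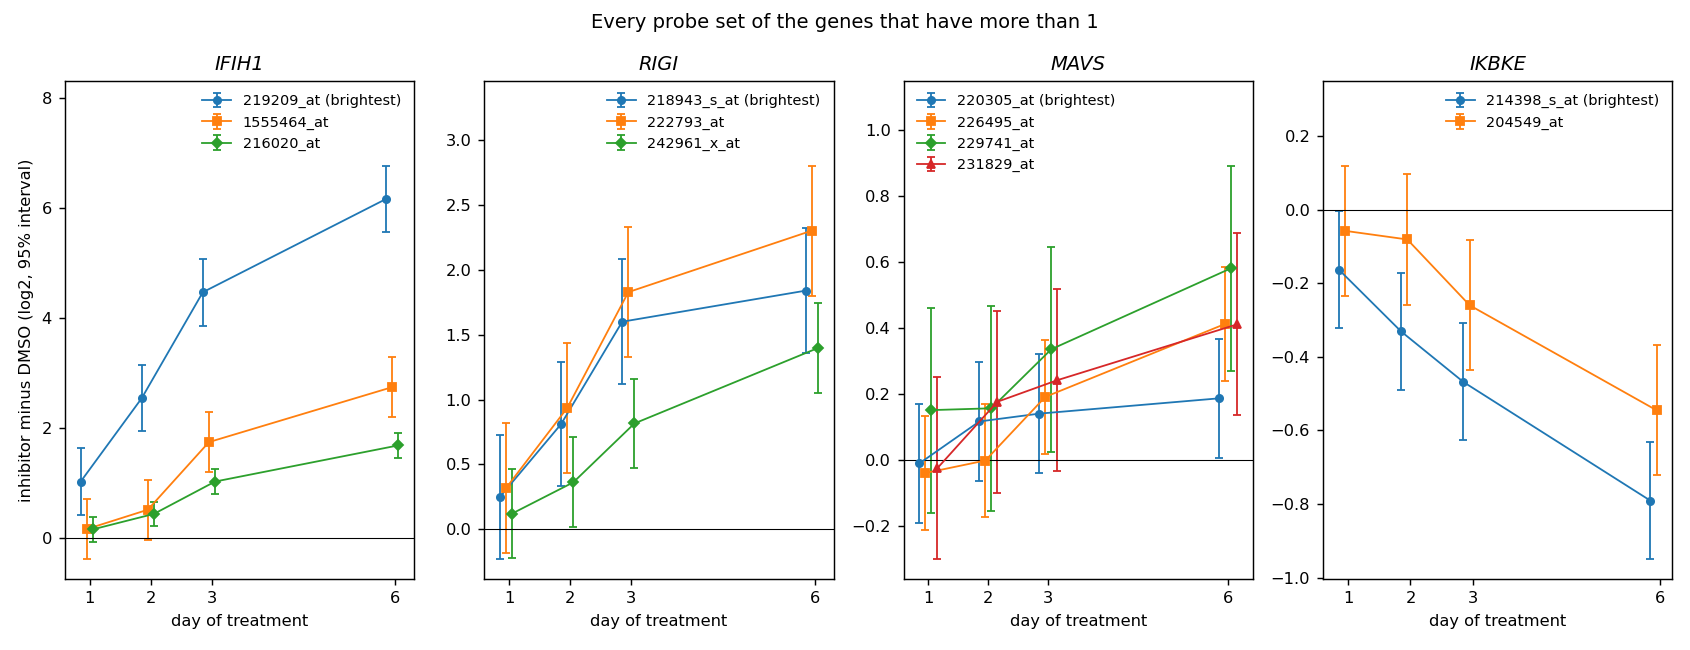
Inhibitor minus DMSO (log2) by day for every probe set of the 4 genes that have more than 1, with 95% intervals from limma. The 3 probe sets of IFIH1 end at 6.17, 2.75 and 1.69 at day 6, those of RIGI at 1.84, 2.30 and 1.40, those of MAVS at 0.19, 0.41, 0.58 and 0.41, and those of IKBKE at -0.79 and -0.55.

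TBK1 and IKBKE encode closely related kinases of IRF3, and their transcripts behaved differently. The 24 values of TBK1 lay between 9.49 and 10.16, and its groups overlapped at every day. Its differences were -0.01 at day 1, -0.20 at day 2, 0.00 at day 3 and 0.03 at day 6, each with an SE of 0.15. The 95% interval at day 6 ran from -0.29 to 0.35, so that a change of up to about that size in either direction could not be seen with 3 arrays per group.

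IKBKE was the member that fell. Its DMSO arrays read 7.53, 7.51 and 7.53 at day 1, 7.50, 7.46 and 7.62 at day 2, 7.40, 7.46 and 7.51 at day 3, and 7.42, 7.59 and 7.66 at day 6. With the inhibitor they read 7.45, 7.28 and 7.34 at day 1, and 7.18, 7.25 and 7.16 at day 2. They read 6.97, 7.00 and 6.99 at day 3, and 6.64, 6.85 and 6.79 at day 6. All inhibitor arrays lay below the DMSO arrays of their day, and each inhibitor group lay below the one before it without overlap. The difference was -0.16 ± 0.07 at day 1 (adjusted p = 0.78). IKBKE fell by 0.33 at day 2 (adjusted p = 0.0087), by 0.47 at day 3 (adjusted p = 9.0e-05) and by 0.79 at day 6 (adjusted p = 1.0e-08). The day 2 call was lost in 6 of the 18 alternatives, among them leaving out DMSO replicate 3 (adjusted p = 0.059). The second probe set, 204549_at, fell by 0.55 ± 0.09 at day 6 (adjusted p = 2.3e-05) and was not called before, with a difference of -0.26 at day 3 (adjusted p = 0.056).

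IRF3, the transcription factor that TBK1 and IKK-epsilon activate by phosphorylation, was not called at any day. Its DMSO values at day 6 were 7.72, 7.59 and 7.74 and the inhibitor values 7.26, 7.67 and 7.47, so that replicate 2 of the inhibitor lay among the DMSO arrays. At day 3 the DMSO arrays read 7.53, 7.48 and 7.53 and the inhibitor arrays 7.24, 7.30 and 7.41, without overlap. The differences were -0.10, -0.08, -0.20 and -0.22 at days 1, 2, 3 and 6, each with an SE of 0.10. The adjusted p at day 6 was 0.078. It was 0.039 with replicate numbers blocked and 0.057 with the block within each day. It was 0.0064 with quantile normalization, 0.016 without inhibitor replicate 2 and 0.039 with the arrays numbered 2 left out. At day 3 quantile normalization alone gave a call (0.037). An array of RNA levels says nothing about phosphorylation of IRF3.

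**Figure D3:**
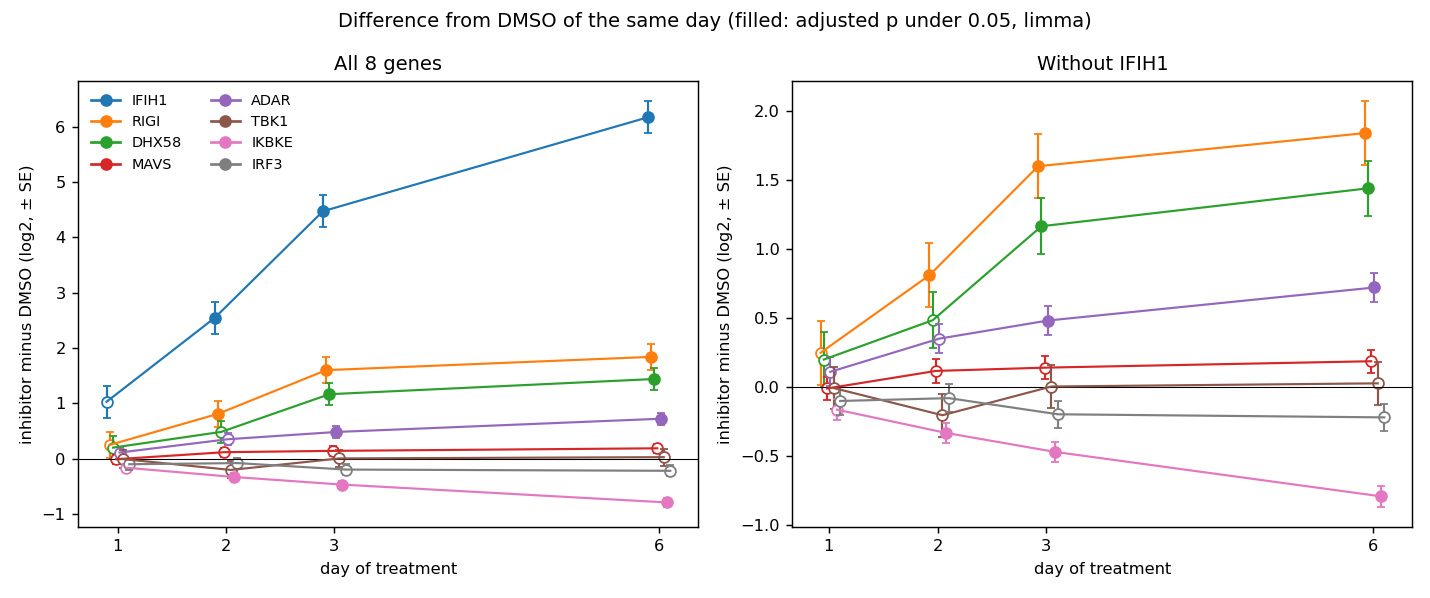
Difference from same-day DMSO (log2, ± SE from limma, 3 arrays per group) for the 8 genes, with all genes on the left and without IFIH1 on the right. Filled points passed an adjusted p of 0.05. IFIH1 climbs to 6.17, RIGI, DHX58 and ADAR to 1.84, 1.44 and 0.72, IKBKE falls to -0.79, and MAVS, TBK1 and IRF3 have open points at every day.

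Of the 8 genes limma called 0 at day 1, 2 higher with 1 lower at day 2, 4 higher and 1 lower at day 3, and 4 higher and 1 lower at day 6. At day 1, 2 of the 8 had an unadjusted limma p under 0.05 (IFIH1 and IKBKE), as had 1197 of all 19775 genes. Of all 19775 genes, 0.485% were called at day 1, 4.39% at day 2 (3.57% higher and 0.824% lower), 16.3% at day 3 (8.64% and 7.65%) and 45.4% at day 6 (18.5% and 26.9%). With so many genes called at day 6, the count of 5 of 8 at that day is no result about these genes. The median difference of the 8 was 0.05, 0.23, 0.31 and 0.45 at days 1, 2, 3 and 6, beside -0.01, -0.04, -0.04 and -0.11 over all genes. Groups of a day did not overlap for 10.7% of all genes at day 1, 22.8% at day 2, 30.8% at day 3 and 52.2% at day 6. Over the 16 probe sets, 0 were called at day 1, 3 higher and 1 lower at day 2, 8 higher and 1 lower at day 3, and 11 higher and 2 lower at day 6. Of all probe sets, 0.189% were higher and 0.00183% lower at day 1, 1.94% and 0.32% at day 2, 5.87% and 4.39% at day 3, and 16.3% and 20.4% at day 6.

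Whether the inhibitor's effect grew with time was tested on the difference of the effects themselves. From day 1 to day 6 the effect on IFIH1 grew by 5.14 ± 0.41 (adjusted p = 8.7e-09), on RIGI by 1.59 (0.00070), on DHX58 by 1.24 (0.0020) and on ADAR by 0.61 (0.0034). The negative effect on IKBKE became more negative by 0.63 (7.8e-05), from -0.16 to -0.79. These adjusted p are limma's, and over all genes this difference was called for 26.7% (12.3% upward and 14.4% downward). With the arrays numbered 2 left out DHX58 (adjusted p = 0.099) and ADAR (0.072) were no longer called. MAVS, TBK1 and IRF3 had differences of 0.20, 0.03 and -0.12 and were not called. From day 3 to day 6, 12.5% of all genes were called (5.98% upward and 6.53% downward). Between these days the effect on IFIH1 grew by a further 1.70 (adjusted p = 0.0076, or 0.13 without the arrays numbered 1). That on IKBKE became more negative by 0.32 (0.046, or 0.15 to 0.26 with the arrays of any number left out).

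Between days 1 and 2 and between days 2 and 3 limma called 0 of the 19775 genes (0%), so no member was called. The alternatives called 0 to 12 and 0 to 34 genes, most with the block within day and with the arrays numbered 1 left out. At an unadjusted p under 0.05 there were 881 and 1314 genes, 1 and 3 of them members. The effect on IFIH1 differed by 1.52 ± 0.41 between days 1 and 2 (adjusted p = 0.78) and by 1.93 between days 2 and 3 (adjusted p = 0.19). As a share of the day 6 difference, on the log2 scale, IFIH1 stood at 16.7%, 41.3% and 72.5% at days 1, 2 and 3. RIGI stood at 13.5%, 44.1% and 87.0%, DHX58 at 13.9%, 33.6% and 80.9%, ADAR at 15.4%, 48.7% and 66.9%, and IKBKE at 20.6%, 41.9% and 59.2%. The 5 genes thus had 33.6% to 48.7% of their day 6 difference at day 2, and these shares have no test of their own.

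In DMSO alone, none of the 8 genes was called between day 1 and day 6, where 0.288% of all genes were (0.238% higher and 0.0506% lower). DHX58 was the only member with an unadjusted p under 0.05, with a difference of 0.45 ± 0.20 (limma's adjusted p = 0.53) and no overlap between its groups, which 14.2% of all genes also showed. In the inhibitor arm, where 41% of all genes were called between those days (16.9% higher and 24% lower), IFIH1 rose by 5.15, RIGI by 1.74, DHX58 by 1.69 and ADAR by 0.79, and IKBKE fell by 0.59. The day 1 and day 6 arrays of these 5 did not overlap, as was so for 48.4% of all genes.

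Among the genes themselves, levels in the inhibitor arm ran in parallel with IFIH1 for 3 of the other 7, opposite for IKBKE, and with neither pattern for the remaining genes. Over its 12 arrays IFIH1 correlated with RIGI at r = 0.92, with DHX58 at 0.94, with ADAR at 0.89 and with IKBKE at -0.94. With MAVS, TBK1 and IRF3 the correlations were 0.37, -0.21 and -0.02, and RIGI and DHX58 correlated at 0.97. These points share the time course, so that any pair of genes that both change with time will correlate. In the 12 DMSO arrays IFIH1 correlated with RIGI at 0.24, with DHX58 at 0.39 and with ADAR at 0.01. For MAVS, TBK1, IKBKE and IRF3 the values were -0.03, 0.01, -0.17 and -0.38. There IFIH1 lay below the array medians and its group means spanned 0.35, so these correlations rest on small differences. With each group's mean taken out, over 24 arrays, the deviations of IFIH1 correlated with those of RIGI at 0.54 and of DHX58 at 0.48. For ADAR, MAVS, IKBKE, IRF3 and TBK1 the values were 0.21, 0.08, 0.07, -0.006 and -0.28. Same-numbered arrays of a day deviated together in 11 of 12 pairs, and the part of this in these correlations was not tested.

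The genes whose levels were most like those of IFIH1 over the 24 arrays were GIMAP2 (Pearson r = 0.99), RABGAP1L (0.99), CTSO (0.99), HLA-C (0.99), CARINH (0.99), RTP4 (0.99), RIN2 (0.98) and CASP1 (0.98). They were taken from 1832 of the 1888 genes whose group means span at least 1, since the 8 genes themselves and those with provisional names (such as LOC or LINC and numbered open reading frames) were left out, and no p is given because the points share the time course. HLA-C encodes a heavy chain of MHC class I, and CASP1 the protease that matures interleukin-1 beta. RIN2 differed from DMSO by 5.50 at day 6, CTSO by 4.27, RTP4 by 3.99, GIMAP2 by 3.80 and HLA-C by 1.51. Ranked by r with IFIH1 among 19774 other genes, RIGI stood at place 193 (0.95), DHX58 at 440 (0.92), ADAR at 606 (0.90) and IKBKE at 19742 (-0.96), close to the lowest.

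The gene next to IFIH1 was also measured. GCA, which encodes the calcium-binding protein grancalcin, had a DMSO mean of 2.89, and its differences were -0.34, 0.18 and 0.50 at days 1, 2 and 3, none of them called. At day 6 it rose by 3.08 ± 0.19 (adjusted p = 1.9e-11). FAP, on the other side of IFIH1, differed by -0.08 ± 0.12 at day 6. Of the 16 nearest measured neighbours of the 8 genes, 3 passed the test upward and 3 downward at day 6, which is near or below the 18.5% and 26.9% of all genes. The other neighbours that rose were KCNN3 beside ADAR (0.79 ± 0.14) and SRGAP2 beside IKBKE (1.51 ± 0.30), whose near-identical copies can share a probe. Those that fell were BCL2L12 beside IRF3, XPOT beside TBK1 and KAT2A beside DHX58, with differences of -1.14, -1.04 and -0.46.

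Around these 8 genes the rest of the pathway was described from 5 lists of 76 genes in all, of which 70 had a probe set of their own. None of the 70 was called at day 1, where 5 had an unadjusted limma p under 0.05, as had 1197 of all 19775 genes. At day 2, 13 were higher and 0 lower, where 3.57% and 0.824% of all genes were. At day 3 the counts were 28 and 4 (8.64% and 7.65% of all genes), and at day 6 they were 38 and 15 (18.5% and 26.9%). These shares apply to each list below, and the lists themselves have no test. Like the 8 genes, the lists were chosen with earlier results of these data known. The medians of the 70 differences were 0.02, 0.05, 0.10 and 0.37 at days 1, 2, 3 and 6. The medians over all genes are those given above. The other 6 listed genes are not analysed here.

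Of the sensor cofactors and other RNA sensors, 9 of 18 were higher and 5 lower at day 6, beside 18.5% and 26.9% of all genes, so that the share that was lower is near that of all genes (4 and 0 at day 2, 8 and 1 at day 3). OASL, an oligoadenylate synthetase-like protein that promotes RIG-I signalling, rose by 3.99 ± 0.38 at day 6, from a DMSO mean of 6.42 to 10.41. OAS2 and OAS3, oligoadenylate synthetases that are switched on by double-stranded RNA, rose by 2.36 and 2.15. EIF2AK2, which encodes the kinase PKR that halts translation when double-stranded RNA is present, rose by 1.69 ± 0.13 (adjusted p = 5.1e-10). TRIM25, a ubiquitin ligase known for its role in RIG-I activation, rose by 1.15 ± 0.16 (adjusted p = 2.6e-06). TLR3, the endosomal receptor of double-stranded RNA, differed by -1.18 ± 0.56 and was not called (adjusted p = 0.092). Its arrays were widely spread within every group, with SDs of 0.67 to 0.87 (n = 3). At day 6 its DMSO arrays ran from 4.88 to 6.36 and its inhibitor arrays from 3.91 to 5.25. No fit blocked by replicate number is given for TLR3, so the missing call does not show that its level was unchanged. Chosen after its values were seen, DHX9, an RNA helicase that unwinds double strands, fell by 0.83 ± 0.10 at day 6.

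Of 8 genes of double-stranded RNA editing, binding and decay, 3 were higher and 2 lower at day 6, beside 18.5% and 26.9% of all genes. The share that was lower is near that of all genes, and counts among so few genes are no result about the list. SAMHD1, a nucleotide hydrolase that limits viral replication, rose by 1.12 ± 0.16 and XRN1, the cytoplasmic exonuclease that degrades RNA from its 5′ end, by 0.68 ± 0.19. The day 6 groups of XRN1 overlapped, with DMSO arrays of 8.49 to 9.04 and inhibitor arrays of 8.98 to 9.87 (SD 0.45). SUPV3L1, a mitochondrial RNA helicase, fell by 0.71 ± 0.11, and ADARB1, the second active editing enzyme, fell by 0.34 ± 0.11. ADAR and ADARB1 therefore had opposite signs at day 6, 0.72 and -0.34.

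The adaptors, kinases and transcription factors around MAVS, TBK1 and IRF3 had 11 of 19 members higher and 5 lower at day 6 (1 and 0 at day 2, 7 and 1 at day 3). The share lower at day 6 is near the 26.9% of all genes, and that higher at day 2 near the 3.57%. IRF7, the relative of IRF3 that amplifies interferon production, rose by 1.89 ± 0.30 (adjusted p = 2.2e-05), from 8.09 to 9.98, while IRF3 itself was not called. IRF1 rose by 1.83 ± 0.18, from 6.18 to 8.01. AZI2, an adaptor of TBK1 and IKK-epsilon, rose by 1.05 ± 0.09, and IKBKB, a kinase of the NF-kB pathway, by 0.95 ± 0.10. These were named because their differences were the largest in either direction. The 5 lower genes moved by less, with a lowest difference of -0.43 in the list.

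Of the negative regulators 9 of 15 were higher and 3 lower at day 6, beside 18.5% and 26.9% of all genes. USP18, which removes the ubiquitin-like protein ISG15 from its targets and restrains interferon receptor signalling, rose by 3.04 ± 0.26, from 7.32 to 10.36. It was already called at day 2, with 1.50 (adjusted p = 0.00095). CYLD, a deubiquitinase that acts on RIG-I among others, rose by 1.61 ± 0.10, NLRC5 by 1.32 ± 0.21 and SMURF2, a ubiquitin ligase, by 0.96 ± 0.08.

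Of 10 output genes of IRF3 and NF-kB, 6 were higher and 0 lower at day 6 (18.5% and 26.9% of all genes), and 4 were higher at day 2 (3.57% of all genes). At day 6 the other 4 were not called. The list is named for known targets, and the activity of IRF3 or NF-kB was not measured. IFIT2 rose by 4.34 ± 0.27, IFIT3 by 2.98, IFIT1 by 2.78 and ISG20, an exonuclease of RNA, by 2.38. The first 3 encode proteins that bind viral RNA or block its translation. IFNB1, the interferon beta gene, had DMSO arrays of 3.70 to 4.24 and inhibitor arrays of 4.28 to 5.84 at day 6, and rose by 1.27 ± 0.28 (adjusted p = 0.00065). All its DMSO arrays lay below the array medians, and its day 6 inhibitor arrays had an SD of 0.83 (n = 3). The lowest of these, at 4.28, lay below the highest DMSO array of day 1 (4.33). The differences of IFNB1 at days 1, 2 and 3 were 0.24, 0.36 and 0.78 and were not called. Chosen after their values were seen, the chemokine genes CXCL10 and CCL5 differed by 0.03 and -0.11 at day 6 and were not called.

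**Figure D4:**
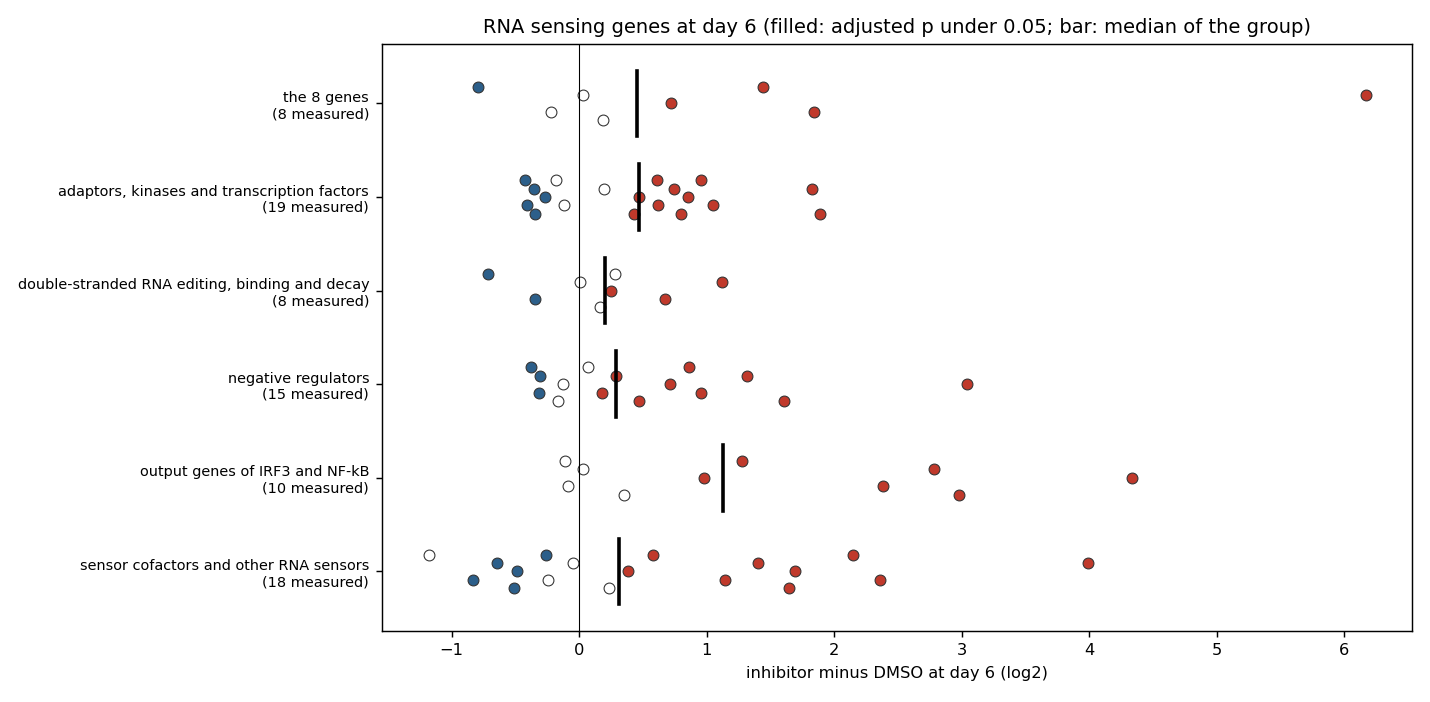
Inhibitor minus DMSO at day 6 (log2) for the 8 genes and for the 70 measured genes of the 5 pathway lists; each point is a gene, filled where limma's adjusted p was under 0.05 (red higher, blue lower), and bars are the medians. The largest difference is that of IFIH1 (6.17), followed by IFIT2 (4.34) and OASL (3.99), and the output genes are the list with filled points on the higher side only.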

How the data were processed

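Trizol-extracted, biotin-labelled total RNA was run on 24 Affymetrix U133 Plus 2 arrays, per the labels' protocols. The deposited values are log2 expression from the authors, for which the submitters' processing notes name RMA and R 2.10.1. The log base is read from their range, 1.72 to 14.33. RMA gives no detection calls and compresses differences of dim probe sets, and the number of arrays limits the precision.

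The platform's annotation gave 41091 probe sets 1 symbol, and 1801 with several were left out. Symbols were updated by Entrez ID. Members and lists were chosen with earlier results of these data known. limma 3.58.1 in R 4.3.3 fitted 1 coefficient per group on all 24 arrays (16 residual and 5.22 prior degrees of freedom). It was tested on simulated data. Other genes were named by rule: up to 4 called genes per list with the largest day 6 differences, a fixed few (IFNB1, TLR3, EIF2AK2, TRIM25, IRF7, EZH2), nearest neighbours and the 8 most correlated genes. Exceptions, chosen after their values were seen, were DHX9, CXCL10, CCL5 and the marker genes.

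Same-numbered inhibitor and DMSO arrays deviated together in 11 of 12 pairs (r over 0.1, from 0.04 at day 2 to 0.55), in all 3 pairs at days 1, 3 and 6. The labels do not say what a number marks. Blocked fits, other normalizations, filters and left-out arrays were alternatives.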

Additional observations from a re-analysis of the deposited data

Results flagged for a closer look

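The inhibitor's effect differed between day 1 and day 6 for 5 of the 8 genes, by a test of the difference itself (limma's adjusted p over all genes). For IFIH1 the difference was 5.14 (8.7e-09), for RIGI 1.59 (0.00070), for DHX58 1.24 (0.0020), for ADAR 0.61 (0.0034) and for IKBKE -0.63 (7.8e-05). The same was called for 26.7% of all genes.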

How the results depend on the processing

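Every member call at days 3 and 6, and that of IFIH1 at day 2, held in all 18 alternatives, except that ADAR at day 3 was lost in 1 of them. Of 1136 alternative values of single members, 1061 kept direction and call, 24 lost a call, 20 gained one and 31 changed sign, 0 of them called values. The cause of these changes was not tested. For members called, fitting only the groups compared gave 1 higher at day 1 (IFIH1, adjusted p = 0.043), 0 lower at day 2 and 0 lower from day 3 to day 6. Averaging probe sets gave 1 higher and 0 lower at day 2. The replicate block gave 2 lower at day 6 (IRF3) and, within day, 4 higher at day 2 (ADAR, adjusted p = 0.0045, and DHX58, 0.044). ADAR at day 2 was also called with the replicate block over all days (0.0040), and beside the MAVS calls given above the block changed no other member call. Leaving out dim genes or weighting arrays also gave 3 higher at day 2 (ADAR). Without the dim genes MAVS was narrowly called at day 6 (limma's adjusted p = 0.0499989). Quantile normalization again gave 3 higher at day 2 (ADAR) and 2 lower at days 3 and 6 (IRF3). Subtracting array medians, or a variance trend, gave 3 higher at day 2 (ADAR) and 0 lower from day 3 to day 6. With arrays left out, members higher were 1 to 2 at day 2, 3 to 4 at day 3 and 4 to 5 at day 6. For the change of the effect they were 2 to 4 from day 1 to 6 and 0 to 1 from day 3 to 6. Members lower were 0 to 1 at day 2, 1 to 2 at day 6 and 0 to 0 from day 3 to 6. Over all genes, 96 were called at day 1 (2 to 301 over the alternatives), 869 at day 2 (255 to 1866), 3221 at day 3 (1234 to 4853) and 8977 at day 6 (6463 to 10157). For the change of the effect, 0 were called from day 1 to 2 (0 to 12) and from day 2 to 3 (0 to 34), 2474 were called from day 3 to 6 (601 to 3977) and 5277 from day 1 to 6 (2998 to 6769), and in DMSO 57 (7 to 199). At the single days, fewest came without the arrays numbered 2, and most with the block within day.

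All signs that changed belong to values that were not called. At day 1 MAVS had 0.020 with averaged probe sets and 0.0024 with array weights. TBK1 had -0.0041 with weights at day 3, MAVS -0.0015 between days 2 and 3 with medians subtracted, and IRF3 -0.049 in the inhibitor arm with quantile normalization. With arrays left out, day 1 values ran from -0.041 to 0.38 for DHX58, -0.060 to 0.055 for MAVS and -0.15 to 0.13 for TBK1. TBK1 ran from -0.069 to 0.098 at day 3 and -0.049 to 0.13 at day 6. From day 1 to 2 IRF3 ran from -0.064 to 0.10 and TBK1 from -0.32 to 0.027, and from day 2 to 3 MAVS from -0.033 to 0.098. From day 3 to 6 IRF3 ran from -0.16 to 0.049, RIGI from -0.23 to 0.50 and TBK1 from -0.047 to 0.058. In DMSO, day 6 minus day 1, IFIH1 ran from -0.17 to 0.18 and IKBKE from -0.016 to 0.11.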
